A study of Mus musculus with 12 samples.

Results

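Liver RNA of POR-null mice given quercetin was compared with liver RNA of wild-type mice given quercetin, across all probe sets of an Affymetrix 430A array other than the manufacturer's controls. The comparison rests on the 6 of the 12 arrays of the series whose titles name quercetin, 3 labelled POR-null+quercetin and 3 labelled wild type+quercetin. Each array holds RNA pooled from whole livers of 3 male mice aged 6 to 8 weeks, so that a group stands for 9 mice. Both genotypes are labelled C57BL/6. All animals ate a soya-free powdered diet during 14 days of adaptation, and the quercetin groups then received that diet with quercetin added at 6.2 g per kg, given as a dose of 7 mg per mouse, for 24 h. The other 6 arrays, 3 POR-null and 3 wild type on the same diet without quercetin, entered here for the shared estimate of spread and for the comparison of the diets. The labels do not say by which promoter or in which cells Por was disrupted. A difference in strain background and the loss of POR cannot be told apart in this design. Por itself was not analysed here, and the genotypes are taken from the labels without a check of its level.

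POR, NADPH-cytochrome P450 oxidoreductase, passes electrons from NADPH to the microsomal cytochrome P450 enzymes, and without it these enzymes are inactive. In liver they begin bile acid synthesis from cholesterol, oxidise steroids and retinoids, and attach oxygen to drugs and plant compounds, which transferases then join to glutathione, glucuronic acid or sulfate for export. Quercetin is a dietary flavonol that liver mainly conjugates with glucuronic acid and sulfate. Because P450 and lipid genes are the classic subjects of POR-null liver, the members of 6 lists of such genes were set aside after testing, and the account below is mainly of the other genes.

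The 6 quercetin-diet arrays were alike in scale, with medians between 5.93 and 5.97 on the log2 scale of the deposited values, and arrays of the same group correlated at 0.991 to 0.993 over probe sets. On the first principal component of all 12 arrays, which held 33% of the variance, the POR-null+quercetin arrays lay between 17.9 and 23.0 and the wild type+quercetin arrays between -13.4 and -6.11. The difference between 3′ and 5′ control probe sets, a sign of RNA integrity, overlapped between the groups for beta-actin (0.92 ± 0.10 against 0.84 ± 0.05, SD, n = 3), Gapdh and the transferrin receptor. For pyruvate carboxylase it was 2.01 ± 0.12 in POR-null and 2.35 ± 0.20 in wild type, without overlap, and its part in the results was not tested. Of 11 hepatocyte genes such as Alb, Asgr1 and Cps1, 0 differed by the test, where 2.49% of all genes did, so the count says little. Their median log2 difference was -0.20, with 2 of 11 above 0. Relative to all arrays the list averaged -0.04, -0.16 and -0.01 in POR-null pools 1 to 3. In wild-type pools 1 to 3 it averaged 0.08, 0.12 and 0.07. The part of this shift in the results was not tested. In bulk liver, fewer cells of a type and less RNA per cell cannot be told apart.

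At an adjusted p of 0.05, 527 of 22626 probe sets differed (2.33%), 396 higher (1.75%) and 131 lower (0.579%) in POR-null. Throughout, adjusted p is limma's, with Benjamini-Hochberg adjustment over all 22626 probe sets, and differences are POR-null minus wild type in log2 units with the SE of the fit. Taking each gene by 1 probe set, 309 of 12393 genes (2.49%) differed, 231 higher (1.86%) and 78 lower (0.629%). Outside the P450 and lipid lists 282 of 12189 genes (2.31%) did, 208 higher (1.71%) and 74 lower (0.607%), while 27 of the 204 genes set aside (13.2%) did. After quantile normalization the split outside the lists was 167 higher and 97 lower. The POR-null arrays lay wholly above the wild-type arrays for 1509 genes (12.2%) and wholly below them for 1676 (13.5%), and the median log2 difference over all genes was -0.03. The count of genes outside the lists depended on single pools, being 70 without POR-null pool 1, 74 without wild-type pool 2, 91 without POR-null pool 2 and 105 without wild-type pool 1. Of 89 named genes that passed, 37 were called whichever of the 6 pools was left out. Outside the set-aside lists these were Sult1e1, Papss2, Gstm2, Gstm3, Gstt3, Gstp1, Pgd, Aldh1a7, Dhrs7, Slco1a4, Slco1a1, Nr0b2, Lcn2, Orm2, Mt1, Mt2, Lgals1, S100a10, Ppp1r3c, Pklr, Slc2a2, Rhbg, Oat, Tsc22d3, Upp2, Dclre1a and Tmem141. Within those lists they were Cyp2b10, Cyp7a1, Cyp26a1, Cyp2d26, Cyp4v3, Cd36, Thrsp, Fitm1, Pparg and Lcat. Each of the rest of the 89 missed the threshold in at least 1 such fit. With a robust variance prior Lcn2, Orm2, Mt2 and Ppp1r3c also missed it, at adjusted p between 0.0501 and 0.0597.

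**Figure D1:**
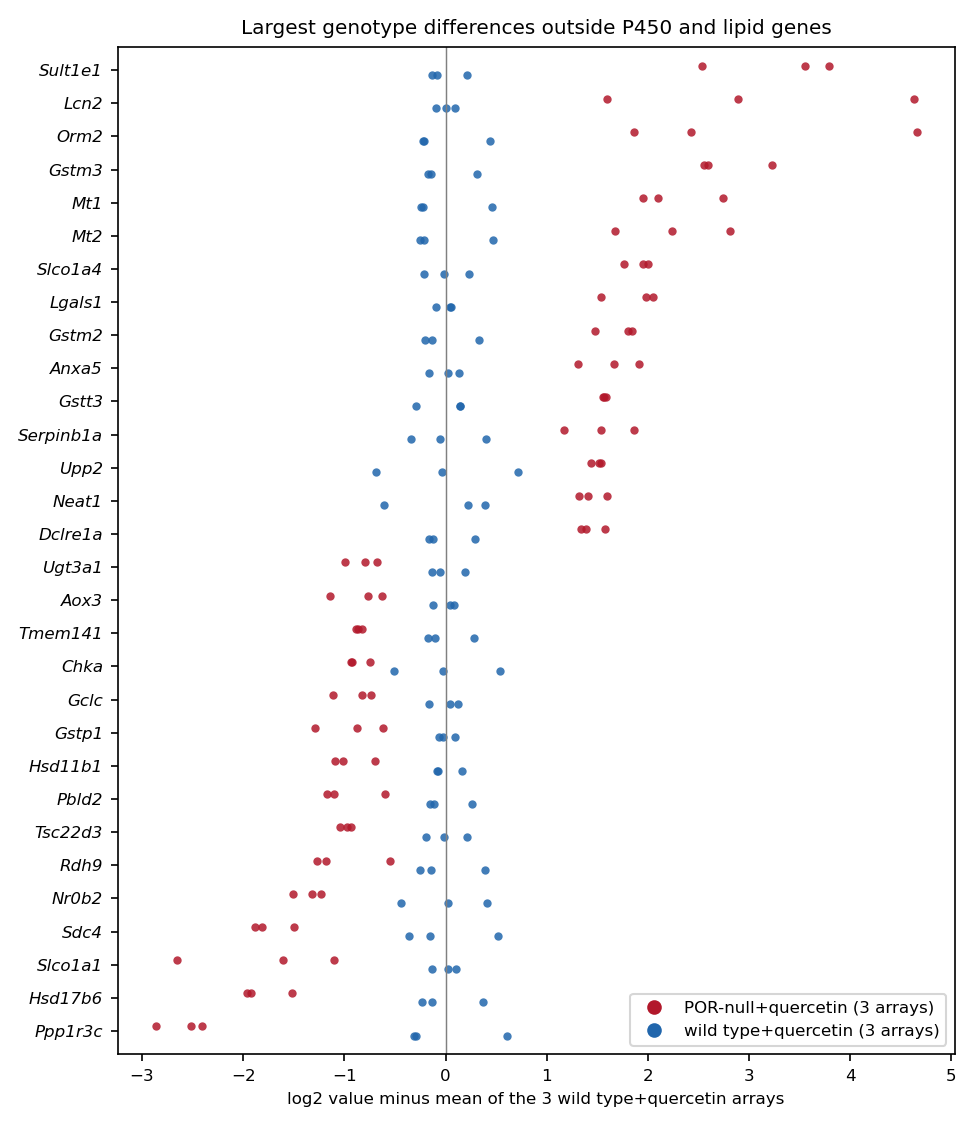
Log2 values of the 15 largest increases and 15 largest decreases outside the P450 and lipid lists, each minus the mean of the 3 wild type+quercetin arrays, with 1 point per array (red POR-null+quercetin, blue wild type+quercetin). The scale runs from Ppp1r3c, -2.60 log2 units lower in POR-null, to Sult1e1, 3.29 log2 units higher.

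The largest increase outside the set-aside lists was that of Sult1e1, the estrogen sulfotransferase, which adds sulfate to estrogens and to phenols including flavonoids. Its log2 values were 8.34, 7.09 and 8.10 in POR-null pools 1 to 3 and 4.76, 4.42 and 4.47 in wild-type pools 1 to 3. The wild-type values sit in the lower part of the array's range and every POR-null pool lay far above them. The difference was 3.29 (SE 0.35), or 9.79-fold, with an adjusted p of 0.000496. Papss2, which makes the sulfate donor PAPS, read 10.06, 10.20 and 10.11 in POR-null and 8.87, 9.23 and 9.26 in wild type, a rise of 1.00 (SE 0.15, adjusted p 0.00452). Both calls held whichever of the 6 pools was left out, but 2 of the 4 probe sets of Papss2 were called and the lowest differed by 0.11.

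These were 2 of 26 measured glucuronyl- and sulfotransferase genes that rose, and 2 fell, with a list median of 0.21 against -0.03 over all genes. The other sulfotransferases with a POR-null excess, Sult1b1 at 0.49, Sult1a1 at 0.46 and Sult1d1 at 0.43, did not pass. Ugt3a1, a UDP-glycosyltransferase, was 7.20, 7.52 and 7.40 in POR-null and 8.07, 8.14 and 8.39 in wild type, a fall of 1.77-fold (-0.83, SE 0.16, adjusted p 0.0143). Ugt2b5, one of the glucuronosyltransferases of androgens and drugs, fell by 0.40 (SE 0.09, adjusted p 0.0357). The Ugt2b5 call was lost in 5 of 6 fits with a pool left out and after centring each array on its median.

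Among the glutathione S-transferases, which join glutathione to electrophiles, 4 of 20 measured genes rose and 1 fell. Gstm3 read 10.91, 11.55 and 10.88 in POR-null pools and 8.18, 8.63 and 8.15 in wild-type pools, a 6.93-fold rise (2.79, SE 0.39, adjusted p 0.00271). Gstm2 read 8.95, 8.99 and 8.63 against 6.95, 7.48 and 7.02, a rise of 1.71 (SE 0.25, adjusted p 0.00395). For both mu-class genes the lowest POR-null pool exceeded the highest wild-type pool by more than the spread within either group. The theta-class gene Gstt3 was nearly the same in the 3 POR-null pools, 8.74, 8.75 and 8.76, against 7.32, 6.89 and 7.33 in wild type, a rise of 1.57 (SE 0.25, adjusted p 0.00624). Gsta2, an alpha-class enzyme, rose by 0.58 (SE 0.12, adjusted p 0.0183).

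The member that fell was Gstp1, the pi-class enzyme, whose hepatic level is known to be higher in male than in female mice. Its log2 values were 11.97, 12.39 and 12.65 in POR-null and 13.36, 13.23 and 13.19 in wild type, a fall of 0.93 (SE 0.15), or 1.90-fold, with an adjusted p of 0.00624. The mu-, theta- and pi-class genes named here were called whichever pool was left out. The family's median was 0.27, and 15 of 20 members lay above 0. The mu-class genes are close in sequence, and a probe set of one may also bind RNA of another, which these values do not separate.

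**Figure D2:**
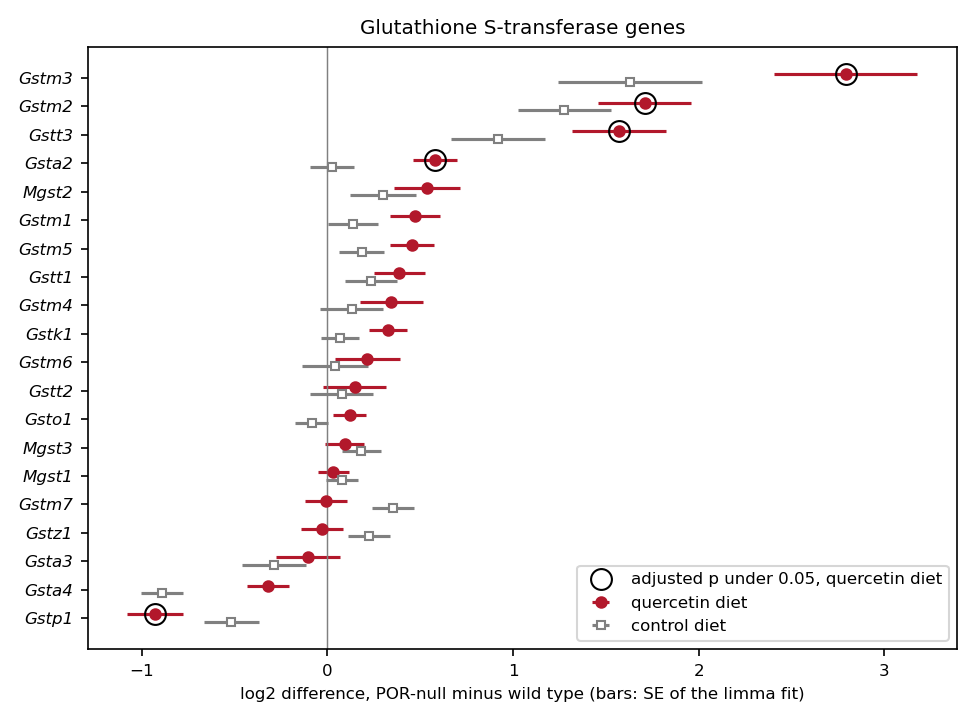
Log2 difference between POR-null and wild type for the 20 measured glutathione S-transferase genes on the quercetin diet (filled red points) and on the control diet (open grey squares), with bars for the SE of the fit and rings around genes with an adjusted p under 0.05 on the quercetin diet. Gstm3, Gstm2 and Gstt3 stand apart on the right with differences of 2.79, 1.71 and 1.57, and Gstp1 on the left with -0.93.

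In the list of glutathione synthesis and targets of the stress regulator NRF2, 3 of 28 measured genes rose, 2 fell and the median was -0.00. Gclc, the catalytic subunit of the enzyme that limits glutathione synthesis, was 8.87, 8.59 and 8.97 in POR-null and 9.54, 9.74 and 9.82 in wild type. It fell by 0.89 (SE 0.18, adjusted p 0.0167), and its second probe set fell by 1.28. Pgd, which makes NADPH in the pentose phosphate pathway, read 7.83, 7.90 and 7.69 against 6.57, 6.63 and 6.71, a 2.25-fold rise (1.17, SE 0.20, adjusted p 0.0082), with all 4 of its probe sets called. Gpx4, the peroxidase of membrane lipid hydroperoxides, rose by 0.69 (SE 0.14, adjusted p 0.0216), and Prdx4, a peroxiredoxin of the endoplasmic reticulum, fell by 0.53 (SE 0.12, adjusted p 0.0303). With a pool left out, the calls of Gpx4 and Prdx4 were lost in 5 of 6 fits and that of Gclc in 4 of 6. Of the members that did not pass, Nqo1 stood at 0.15, Hmox1 at -0.10 and Gclm at -0.13.

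Aldehyde dehydrogenases and carbonyl reductases, which clear reactive aldehydes and ketones, had 4 of 32 measured genes higher and 0 lower. Aldh1a7 was 11.18, 11.10 and 11.03 in POR-null and 9.78, 9.91 and 9.82 in wild type. The groups were separated by more than 1 log2 unit at their nearest pools, and the rise of 1.27 (SE 0.15, adjusted p 0.000936) was called in every fit. Its relative Aldh1a1, a retinaldehyde dehydrogenase, rose by 0.50 (SE 0.11, adjusted p 0.0267), Aldh3a2, which oxidises fatty aldehydes, by 0.68 (SE 0.14, adjusted p 0.0215) and Dhrs7, a short-chain dehydrogenase, by 0.63 (SE 0.10, adjusted p 0.00552). The calls of Aldh1a1 and Aldh3a2 were each lost in 5 of 6 fits with a pool left out. Of 22 flavin monooxygenases, esterases and other hydrolases 1 rose and 1 fell: Ces2a, a carboxylesterase of the microsomes, rose by 0.95 (SE 0.17, adjusted p 0.0116). Aox3, a molybdenum-containing aldehyde oxidase that works without POR, read 8.72, 9.11 and 9.24 against 9.75, 9.91 and 9.95, a fall of 0.85 (SE 0.19, adjusted p 0.0338) lost in 5 of 6 fits with a pool left out.

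Transporters of bile acids and drugs moved in both directions, 3 of 24 measured genes higher and 1 lower. Slco1a4 and Slco1a1 encode related organic anion uptake carriers of the hepatocyte's blood side. Slco1a4 was 9.33, 9.28 and 9.09 in POR-null and 7.56, 7.32 and 7.12 in wild type, a rise of 1.90 (SE 0.21), or 3.74-fold, with an adjusted p of 0.000636. Slco1a1 went the other way, 7.58, 8.62 and 9.13 against 10.10, 10.34 and 10.26, a 3.45-fold fall (-1.79, SE 0.28, adjusted p 0.0057). The wild-type pools agreed closely for Slco1a1 and the POR-null pools spread over more than 1 log2 unit, yet no pool of one group reached the other. Abcc3, an exporter of conjugates to the blood, rose by 0.63 (SE 0.15, adjusted p 0.0387) and Slc47a1, which exports organic cations, by 0.72 (SE 0.15, adjusted p 0.0191), each lost in 5 of 6 fits with a pool left out. The bile salt carriers Slc10a1 at 0.15 and Abcb11 at -0.04 did not pass.

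Nr0b2 (SHP), the repressor through which the bile acid receptor FXR lowers bile acid synthesis, read 6.28, 6.09 and 6.37 in POR-null and 7.17, 8.02 and 7.63 in wild type. Its fall of 2.56-fold (SE 0.21 log2 units, adjusted p 0.00544) was called in every fit. Cyp7a1, the set-aside gene for the first enzyme of bile acid synthesis, was 11.73, 11.64 and 11.56 against 9.37, 8.98 and 9.54, a rise of 2.34 (SE 0.27, adjusted p 0.000807). In the list of bile acid regulation and conjugation, with 14 genes measured, Nr0b2 was the 1 that fell and Acox2, which shortens the side chain of bile acid precursors, the 1 that rose, by 0.57 (SE 0.13, adjusted p 0.0387). The Acox2 call was lost in 5 of 6 fits with a pool left out and after quantile normalization. The FXR gene itself, Nr1h4, stood at 0.07 and did not pass. Of 30 nuclear receptors and coregulators 0 passed, where 2.49% of all genes did, so the count says little. Of the 30, 10 lay above 0, where 43.7% of all genes did, and the median was -0.08.

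The acute phase list mixes plasma proteins that liver raises in inflammation with some that it lowers, such as Alb and Ttr, and with receptors such as Il6ra. It had 3 of 35 measured members higher and 1 lower, with a median of -0.02, which is not the level of the inducible members alone. Lcn2, lipocalin 2, which binds bacterial iron carriers, read 10.95, 9.21 and 7.91 in POR-null pools 1 to 3 against 6.41, 6.22 and 6.31 in wild type. Orm2, an alpha-1-acid glycoprotein, read 9.05, 6.81 and 6.26 against 4.16, 4.83 and 4.18. In both genes pool 1 was the highest POR-null pool and pool 3 the lowest, and even pool 3 lay above every wild-type pool. The differences were 3.04 (SE 0.51, adjusted p 0.0082) for Lcn2, 8.23-fold, and 2.98 (SE 0.49, adjusted p 0.00677) for Orm2. No detection call was used, and the wild-type values of Orm2 and Sult1e1 lie under the median of all values, so a fold for them is that of the deposited values only. Orm3 was 7.65, 7.19 and 6.72 against 5.80, 5.98 and 5.62, a rise of 1.38 (SE 0.24, adjusted p 0.00942) that missed the threshold without POR-null pool 1 (adjusted p 0.0541).

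C/EBP proteins are known regulators of acute phase genes in liver, so the 250 bases before the RefSeq start of the 3 genes that rose are shown, with the letters TTGCNNAA, which include the palindrome bound by C/EBP proteins, searched on both strands and printed in capitals. The sequences are those of the RefSeq promoter table for GRCm38.p6, given 5′ to 3′ along the gene: Orm2 at chr4:63362199-63362448 on the plus strand, Orm3 at chr4:63355908-63356157 on the plus strand and Lcn2 at chr2:32387740-32387989 on the minus strand.
Orm2: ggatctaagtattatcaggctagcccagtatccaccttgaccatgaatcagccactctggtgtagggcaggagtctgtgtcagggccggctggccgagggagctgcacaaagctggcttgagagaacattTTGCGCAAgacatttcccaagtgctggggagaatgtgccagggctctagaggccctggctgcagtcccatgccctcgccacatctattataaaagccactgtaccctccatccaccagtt
Orm3: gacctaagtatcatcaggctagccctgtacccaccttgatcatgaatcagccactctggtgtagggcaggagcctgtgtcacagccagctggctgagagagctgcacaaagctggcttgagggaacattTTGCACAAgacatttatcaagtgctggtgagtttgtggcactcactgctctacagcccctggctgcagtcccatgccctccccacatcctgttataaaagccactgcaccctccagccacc
Lcn2: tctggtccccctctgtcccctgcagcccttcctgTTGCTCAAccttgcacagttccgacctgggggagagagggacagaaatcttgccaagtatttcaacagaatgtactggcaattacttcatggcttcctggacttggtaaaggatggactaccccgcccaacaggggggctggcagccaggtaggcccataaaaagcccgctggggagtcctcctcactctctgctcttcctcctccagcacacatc
Each window held 1 match, and 3142 of 32851 windows of that length in the table held at least 1 (9.56%). The Orm2 and Orm3 windows lie close together on chr4 and read nearly alike around the match. Their matches are therefore not independent of each other. The match is a description of these letters, not a site shown to be bound. Orm1 was not among the matched entries.

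Further inducible members did not pass. Saa2, a serum amyloid A, was 12.21, 11.26 and 7.82 in POR-null pools 1 to 3 against 7.87, 8.51 and 7.56 in wild type (2.45, SE 0.74, adjusted p 0.102). Saa1 read 12.45, 11.88 and 9.15 against 9.28, 10.10 and 8.72 (1.79, SE 0.65, adjusted p 0.17). Pools 1 and 2 were thus far above wild type for both serum amyloids and pool 3 was within its range. Apcs, serum amyloid P, had a difference of 1.44 (SE 0.37, adjusted p 0.0594), with pool 1 at 11.66, pool 3 at 9.83 and the wild-type pools between 8.87 and 9.30. Averaged over the 35 members relative to all arrays, the list stood at 0.68, 0.17 and -0.08 in POR-null pools 1 to 3 and between -0.12 and -0.01 in the wild-type pools. Without POR-null pool 1, 2 members rose and 0 fell, and without pool 3, 7 rose and 1 fell. Of 10 markers of monocytes and neutrophils 1 passed, Lcn2 itself, with a list median of -0.02, 5 above 0 and S100a9 at -0.20. Without Lcn2 the other 9 markers averaged between -0.07 and 0.08 in the POR-null pools and between -0.08 and 0.03 in the wild-type pools. The part of such cells in the result was not tested.

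**Figure D3:**
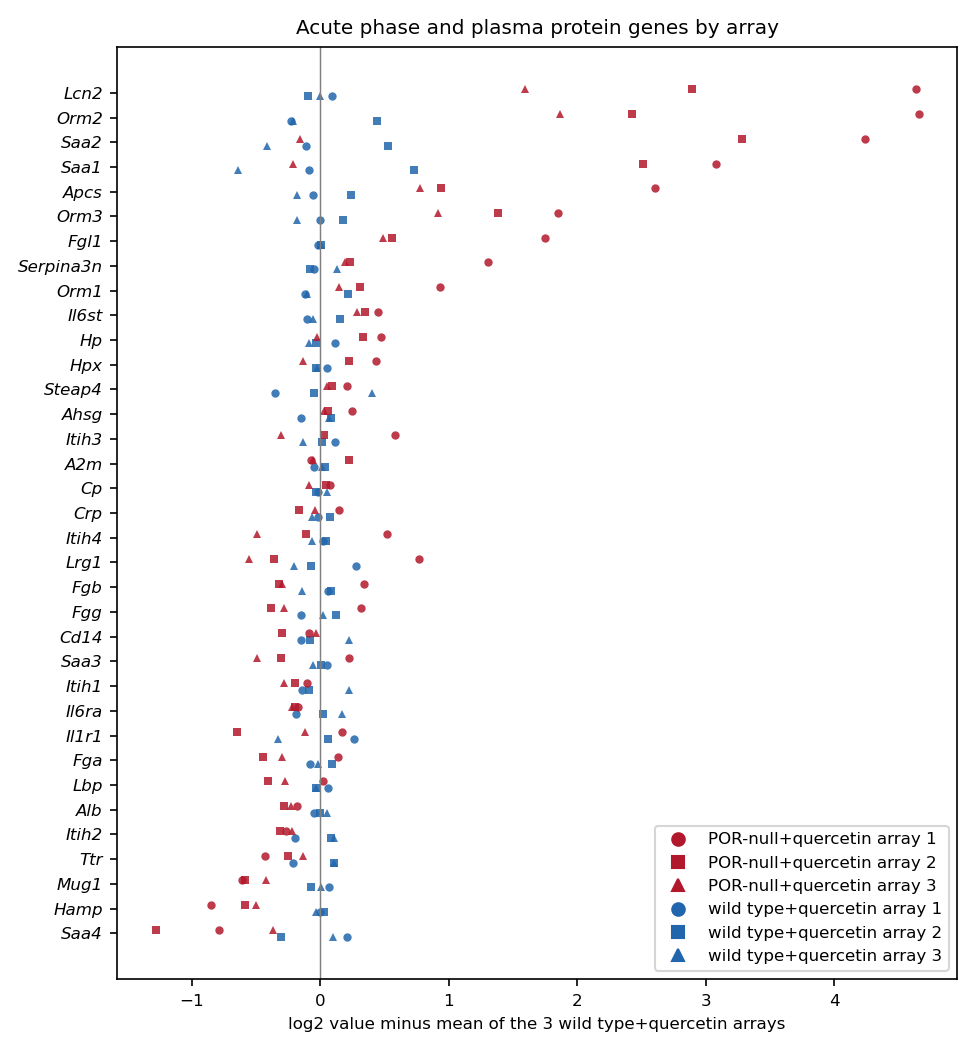
Log2 values of the 35 measured acute phase genes on the 6 quercetin-diet arrays, each minus the mean of the 3 wild type+quercetin arrays (red POR-null, blue wild type, and the marker shape gives the pool). For Saa1, Saa2, Orm2, Lcn2 and Apcs POR-null pool 1 is farthest to the right and pool 3 nearest to wild type.

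The acute phase member that fell was Mug1, a murinoglobulin protease inhibitor. It read 12.04, 12.07 and 12.23 in POR-null and 12.72, 12.58 and 12.65 in wild type, a fall of 0.54 (SE 0.09, adjusted p 0.00834). In the complement and coagulation list 5 of 40 measured genes fell and 0 rose, with a median of -0.11 and 14 members above 0. C9, the pore-forming last complement component, was 11.34, 11.56 and 11.43 against 12.07, 12.25 and 12.06, a fall of 0.68 (SE 0.16, adjusted p 0.0384). The others were Hc (complement C5) with a fall of 0.53, Proc (protein C) of 0.45, Cfb (complement factor B) of 0.44 and Klkb1 (plasma kallikrein) of 0.42, with adjusted p between 0.0426 and 0.0499. All 5 lie close to the threshold: with a pool left out the list had 0 or 1 member lower, and C9, Cfb, Hc and Klkb1 were each lost in 6 of 6 such fits.

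Metal-binding and metal-transport genes had 5 of 24 measured members higher and 0 lower. Mt1 and Mt2 are the metallothioneins of liver, small cysteine-rich proteins that bind zinc and copper and are raised by metals, glucocorticoids and inflammation. Mt1 read 12.46, 11.83 and 11.68 in POR-null and 10.19, 9.49 and 9.50 in wild type, a 4.81-fold rise (2.26, SE 0.35, adjusted p 0.00544). Mt2 read 12.03, 10.88 and 11.45 against 9.68, 9.00 and 8.96, a 4.73-fold rise (2.24, SE 0.36, adjusted p 0.00624). Both genes were highest in pool 1 of either genotype, and the groups did not overlap. Slc39a14, a zinc and iron importer, was 9.60, 9.01 and 9.43 against 8.55, 8.68 and 8.74, a rise of 0.69 (SE 0.14, adjusted p 0.0178). Hfe, an iron-sensing membrane protein, rose by 0.61 (SE 0.12, adjusted p 0.016) and Fth1, the ferritin heavy chain, by 0.31 (SE 0.07, adjusted p 0.0465). The second probe sets of Slc39a14 and Hfe differed by 0.19 and 0.23. The hormone of iron, hepcidin, did not pass by its chosen probe set, Hamp at -0.64 (adjusted p 0.261), while its second probe set, at -1.10, did. With a pool left out the list had 2 to 4 members higher, and both metallothioneins stayed called in all 6 such fits.

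Annexins, S100 proteins and galectins, calcium- and sugar-binding proteins, had 3 of 24 measured members higher and 0 lower, with a median of 0.25 and 19 above 0. Lgals1, galectin 1, was 8.38, 8.30 and 7.86 in POR-null and 6.38, 6.37 and 6.23 in wild type, a rise of 1.86 (SE 0.25), or 3.62-fold, with an adjusted p of 0.0026. Anxa5, which binds phosphatidylserine, was 9.87, 10.11 and 9.51 against 8.23, 8.04 and 8.33, a rise of 1.63 (SE 0.29, adjusted p 0.00919), and S100a10, the partner of annexin A2, rose by 1.03 (SE 0.16, adjusted p 0.00552). Lgals1 and S100a10 were called in every fit, and Anxa5 missed the threshold without POR-null pool 2 or wild-type pool 2 (highest adjusted p 0.0516).

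These proteins are also made by the other cells of liver, so markers of those cells were set beside them. Stellate and matrix genes had 0 of 23 called (median 0.00), endothelial genes 0 of 18 (-0.04), lymphocyte genes 0 of 13 (-0.07), bile duct genes 0 of 11 (-0.12), erythroid genes 0 of 7 (-0.10) and intestinal epithelial genes 0 of 7 (-0.36). With 2.49% of all genes called, a count of 0 in lists this short says little by itself. Macrophage and Kupffer cell markers had a median of 0.25, with 15 of 19 above 0, and 1 called higher, Mpeg1, a pore-forming protein of macrophages, at 8.63, 8.77 and 8.38 against 7.42, 7.56 and 8.15. Its difference of 0.88 (SE 0.20, adjusted p 0.0359) was lost after quantile normalization and in 4 of 6 fits with a pool left out. The macrophage list averaged 0.14, 0.28 and 0.15 in the POR-null pools and -0.25, -0.18 and 0.39 in the wild-type pools, so that wild-type pool 3 exceeded all POR-null pools. Adipocyte markers had 2 of 7 higher, Cidec and Fabp4, which hepatocytes also make when they store fat, while Adipoq stood at -0.25 and Lep at -0.05. The part of these cells in the result was not tested.

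Digestive enzyme genes of the exocrine pancreas, whose tissue lies beside the liver, had 0 of 17 called although all 17 lay above 0 with a median of 0.92. The list averaged -0.59, 0.05 and 2.01 in POR-null pools 1 to 3 and -0.999, -0.60 and 0.50 in wild-type pools 1 to 3, with the highest level in pool 3 of each genotype. Without POR-null pool 3 the median was 0.10. Outside the lists 198 genes were called without that pool, 167 of them among the 282.

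Glucose and glycogen genes had 5 of 37 measured members higher and 1 lower. The one that fell, Ppp1r3c, encodes PTG, which brings protein phosphatase 1 to glycogen and favours its synthesis, and it was the largest decrease outside the set-aside lists. Its values were 5.63, 6.09 and 5.97 in POR-null and 9.10, 8.18 and 8.20 in wild type. The POR-null pools lay near the median of all values on the array, and the difference was -2.60 (SE 0.43), 6.04-fold, with an adjusted p of 0.00811, both of its probe sets being called. Pklr, liver pyruvate kinase at the end of glycolysis, rose by 0.85 (SE 0.13, adjusted p 0.0057) with 3 of 3 probe sets called, and Slc2a2, the hepatocyte glucose transporter GLUT2, by 0.75 (SE 0.12, adjusted p 0.00677). Gbe1, the glycogen branching enzyme, rose by 0.69, Pdk2, which restrains pyruvate dehydrogenase, by 0.57, and Gyg, glycogenin, by 0.53. Pck1 at -0.36 and G6pc at 0.29, the classic genes of gluconeogenesis, did not pass.

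In the urea cycle and ammonia list 2 of 13 measured genes rose and 1 fell. Rhbg, an ammonia channel of the hepatocytes around the central vein, was 8.72, 8.32 and 8.08 in POR-null and 6.91, 7.16 and 7.04 in wild type, a rise of 1.34 (SE 0.18, adjusted p 0.0022). Oat, ornithine aminotransferase of the same zone, read 12.04, 12.21 and 12.18 against 11.54, 11.53 and 11.50, a rise of 0.62 (SE 0.08, adjusted p 0.00181). Both were called in every fit, and they were also the 2 of 24 members of the WNT and pericentral list that rose. Glud1, glutamate dehydrogenase, fell by 0.46 (SE 0.09, adjusted p 0.0175), whereas Glul, the glutamine synthetase of the same pericentral cells, stood at -0.08 and did not pass. Among amino acid genes 2 of 41 rose and 1 fell: Gpt2, a mitochondrial alanine aminotransferase, rose by 1.16 (SE 0.23, adjusted p 0.0179), Hibch of valine breakdown by 0.69 (second probe set 0.06), and Kmo of tryptophan breakdown fell by 0.49. Of 25 methionine cycle and one-carbon genes 1 rose, Bhmt2, a methyltransferase that makes methionine, by 0.53 (SE 0.12, adjusted p 0.033). The amino acid and one-carbon lists thus had 7.32% and 4% called, against 2.49% of all genes. With a pool left out, the calls of Kmo (adjusted p 0.0476) and Bhmt2 were lost in 6 of 6 fits and that of Hibch in 5 of 6.

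Asns, asparagine synthetase, a target of the amino acid and endoplasmic reticulum stress response, was 8.84, 8.76 and 8.77 in POR-null and 7.55, 7.58 and 7.22 in wild type, a rise of 1.34 (SE 0.24, adjusted p 0.00942). It was the 1 of 33 stress response genes that rose. Herpud1, of endoplasmic reticulum protein degradation, was the 1 that fell, by 0.56 (SE 0.11, adjusted p 0.0195), and 10 of the 33 lay above 0. Called were 6.06% of the 33, against 2.49% of all genes. The Herpud1 call was lost in 5 of 6 fits with a pool left out. The mitochondrial chaperones Hspd1 and Hspe1 rose by 0.32 and 0.55 among 25 heat shock genes, of which 8% were called. Both calls were lost after quantile normalization and in 6 of 6 fits with a pool left out. That of Hspe1 was also lost after centring each array on its median. Ndufs1 of respiratory complex I rose by 0.46 (SE 0.09, adjusted p 0.0191), a call lost in 4 of 6 fits with a pool left out. It was the 1 of 48 oxidative phosphorylation genes called, 2.08% against 2.49% of all genes. Of the 48, 39 lay above 0 with a median of 0.09 that was 0.01 after quantile normalization.

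Steroid-metabolising dehydrogenases had 2 of 20 measured genes lower and 0 higher. Hsd17b6, which oxidises androgen metabolites, was 7.23, 7.19 and 7.63 in POR-null and 8.91, 9.02 and 9.52 in wild type, a 3.48-fold fall (-1.80, SE 0.35, adjusted p 0.0152). Its second probe set differed by -0.15, and the call was lost in 4 of 6 fits with a pool left out. Hsd11b1, which regenerates active glucocorticoid in liver, was 10.73, 10.81 and 11.12 against 11.98, 11.74 and 11.74, a fall of 0.93 (SE 0.16, adjusted p 0.00905). Tsc22d3 (GILZ), a glucocorticoid-induced gene and 1 of 2 members lower among 38 immediate early and stress genes, read 8.28, 8.39 and 8.35 against 9.54, 9.13 and 9.31. Its fall of 0.99 (SE 0.17, adjusted p 0.00834) was called in every fit. The other was Ier2, an immediate early gene, which fell by 0.59 (SE 0.12, adjusted p 0.02), a call lost in 6 of 6 fits with a pool left out. The 2 were 5.26% of that list, against 2.49% of all genes.

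In the growth hormone and sex-biased list 1 of 30 rose, Sult1e1, and 1 fell, Slco1a1, and 9 lay above 0 with a median of -0.19. These calls were 6.67% of the list, against 2.49% of all genes. Hsd3b5, a steroid enzyme of male mouse liver, had values of 5.05, 5.16 and 7.25 in POR-null and 7.64, 8.66 and 8.38 in wild type. The POR-null pools disagreed by about as much as the groups differed, and the difference of -2.40 (SE 0.75, adjusted p 0.115) did not pass. Elovl3 at -1.48 and Mup3 at -0.92, further genes that are higher in males, did not pass either (adjusted p 0.0574 and 0.0552). Retinoid metabolism had 1 of 20 higher, Aldh1a1, which is 5% against 2.49% of all genes. Rdh9, a retinol and steroid dehydrogenase outside the lists, fell by 1.00 (SE 0.22, adjusted p 0.0301). The Rdh9 call was lost in 5 of 6 fits with a pool left out and with a robust variance prior.

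Several of the largest differences belonged to none of the pathway lists. Upp2, a liver uridine phosphorylase, was 9.41, 9.51 and 9.49 in POR-null and 7.28, 7.94 and 8.69 in wild type. The POR-null pools nearly agreed while the wild-type pools spanned more than 1 log2 unit, and the rise of 1.50 (SE 0.25, adjusted p 0.0082) was called in every fit. Serpinb1a, an inhibitor of neutrophil proteases, rose by 1.52 (SE 0.29), Neat1, the architectural long noncoding RNA of paraspeckles, by 1.44 (SE 0.27), and Dclre1a, a nuclease of DNA crosslink repair, by 1.44 (SE 0.24). Of these, Dclre1a was called in every fit, and Serpinb1a and Neat1 were each lost in 3 of 6 fits with a pool left out. The second probe set differed by 0.01 for Dclre1a and by 0.16 for Serpinb1a.

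On the other side, Sdc4, syndecan 4, a heparan sulfate proteoglycan of the cell surface, was 8.76, 8.37 and 8.44 in POR-null and 10.77, 10.10 and 9.89 in wild type. It fell by 1.73 (SE 0.33, adjusted p 0.0133), while its second probe set differed by 0.02, and the call was lost in 3 of 6 fits with a pool left out. Tmem141, a membrane protein of little-known function, fell by 0.86 (SE 0.13, adjusted p 0.00544) and was called in every fit. Chka, choline kinase, fell by 0.87 (SE 0.20) and Pbld2 by 0.96 (SE 0.19), each lost in at least 4 of 6 fits with a pool left out.

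The interferon list had 2 of 31 measured genes higher, Usp18 by 1.08 (SE 0.24, adjusted p 0.0317), which removes the ubiquitin-like ISG15, and Ifih1, the RNA sensor MDA5, by 0.50 (SE 0.12, adjusted p 0.0461), each lost in 6 of 6 fits with a pool left out. The 2 were 6.45% of the list, against 2.49% of all genes. No member was called among 45 ribosomal protein genes, 42 cell cycle genes, 40 cytoskeletal genes, 39 proteasome genes, 21 heme synthesis and electron carrier genes, 20 clock genes or 15 antigen presentation genes. Since 2.49% of all genes were called, a count of 0 in such lists says little. Of the 45 ribosomal protein genes 36 lay above 0 (median 0.11), and of the 42 cell cycle genes 15 (median -0.05), where 43.7% of all genes did. At an unadjusted p under 0.05, 2184 of the 12393 genes differed. Alas1, the first enzyme of heme synthesis, was the highest of the heme list at 0.58 (SE 0.17, adjusted p 0.0984), and its second probe set, at 1.12, passed. In the self-test on simulated arrays of this size, 94.8% of changes of 1 log2 unit and 40.8% of changes of 0.5 were recovered, and changes of the smaller size were thus often missed. The simulated noise was independent between probe sets, without pools that differ over many genes at once. The shares are averages over probe sets. Where pools disagree, as for Hsd3b5, a change of more than 1 log2 unit can also be missed.

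**Figure D4:**
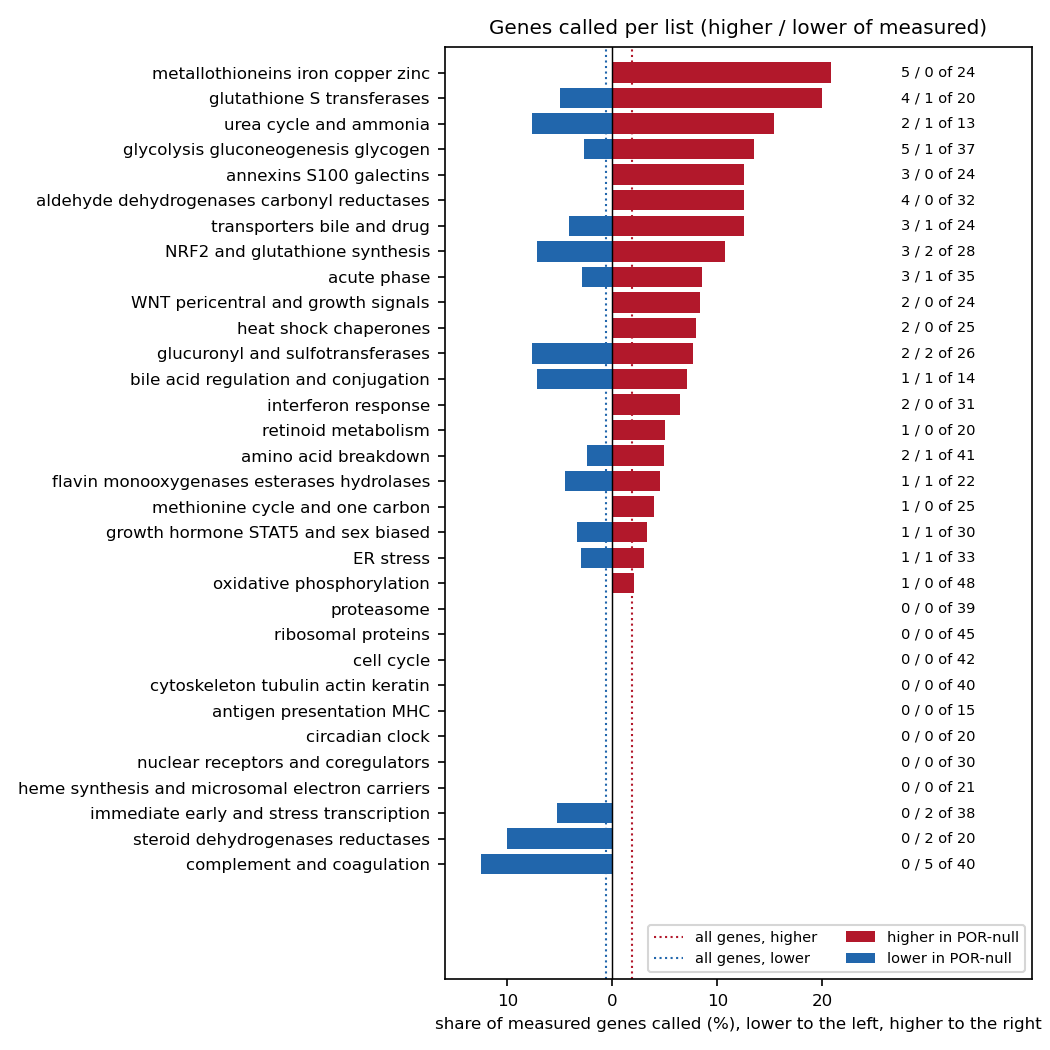
Share of measured genes called higher (red, to the right) and lower (blue, to the left) in POR-null on the quercetin diet for the 32 pathway lists, with the counts at the right and the shares over all genes, 1.86% higher and 0.629% lower, as dotted lines. The metal list is at the top with 5 of 24 higher and the complement and coagulation list at the bottom with 5 of 40 lower.

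The 204 genes set aside had 23 members higher (11.3%) and 4 lower (1.96%). Cyp2b10, a P450 induced through the receptor CAR, showed the largest rise of any gene, 4.37 (SE 0.40, adjusted p 0.000102), with 12.47, 12.73 and 12.50 in POR-null and 9.20, 8.01 and 7.38 in wild type. Thrsp, a lipogenic regulator, rose by 2.71 (SE 0.30) and Cd36, a fatty acid transporter, by 2.27 (SE 0.23). Lcat, which esterifies plasma cholesterol, fell by 0.49 (SE 0.08) and Abcg8, of the sterol exporter, by 0.56 (SE 0.12, adjusted p 0.0262). The Lcat call held in every fit, and that of Abcg8 was lost in 6 of 6 fits with a pool left out.

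The genotype difference was also available on the diet without quercetin, from 6 other arrays, so the diets share no array. On that control diet 154 of 12393 genes (1.24%) were called, 114 higher (0.92%) and 40 lower (0.323%), and outside the P450 and lipid lists 96 were higher (0.788%) and 40 lower (0.328%). Of the 208 genes higher on quercetin, 60 were also higher on the control diet, 28.8% of the one list and 62.5% of the other. Of the 74 lower genes 9 were shared, 12.2% and 22.5%. No gene was called in opposite directions. Over 12393 genes the log2 differences on the diets correlated with Pearson's r of 0.593 and Spearman's rho of 0.417, and 63.8% had the same sign. This is a description across genes, which are not independent replicates. The shared counts moved with single arrays, from 9 without wild-type control pool 2 to 128 without POR-null control pool 3 for the higher genes, and from 1 to 33 for the lower.

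Whether the genotype difference itself changed with diet was tested by the interaction, which called 0 of 22626 probe sets in limma (lowest adjusted p 0.254), with 1397 at an unadjusted p under 0.05. A gene called on quercetin and not on the control diet is therefore not shown to respond differently. Sult1e1 had differences of 3.29 on quercetin and 2.08 on control (interaction adjusted p 0.803), Gstm3 2.79 and 1.63 (0.807), Lcn2 3.04 and 1.93 (0.843), Mt1 2.26 and 1.61 (0.855) and Ppp1r3c -2.60 and -0.61 (0.798). The widest gap among the named genes was that of Sdc4, -1.73 on quercetin and 0.47 on control, an interaction of -2.20 (SE 0.46, unadjusted p 0.000276, adjusted p 0.601). Deptor, an inhibitor of mTOR, had differences of 0.72 and -0.29 (interaction 1.01, SE 0.20, adjusted p 0.601). Of its 3 probe sets 1 was called on quercetin, the lowest differed by 0.07, and the call was lost with the mean of its probe sets and in 5 of 6 fits with a pool left out. Gclc, by contrast, had nearly equal differences, -0.89 and -0.88, as did Anxa5, 1.63 and 1.55.

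**Figure D5:**
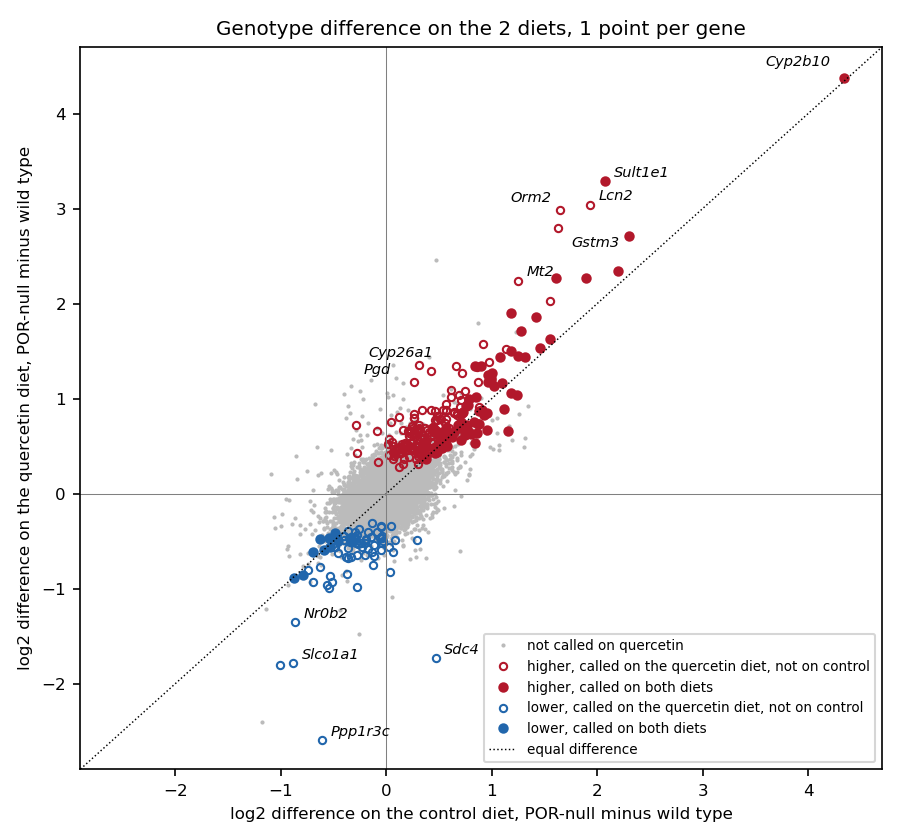
Genotype difference on the quercetin diet against that on the control diet, both in log2 units and POR-null minus wild type, with 1 point per gene (12393), filled points for genes called on both diets and open points for genes called on quercetin and not on control. Most called genes lie at the upper right and lower left, and Sdc4 lies at the lower right with -1.73 and 0.47.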

How the data were processed

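The authors deposited 1 table of log2 values for 22690 probe sets on 12 arrays. The scale was read from its values (2.57 to 14.17). Per the submitters' processing notes MAS5 and RMA were in use, but which of them made these values, and with which settings, is not given in the sources used here. Groups and pool numbers come from the sample titles.

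The 22626 probe sets that are not AFFX controls entered a model with a mean for each of 4 groups, fitted over all 12 arrays by limma 3.58.1 (R 4.3.3), with an intensity trend, Benjamini-Hochberg adjustment and two-sided tests. The 95% confidence interval of a difference had a median half-width of 0.24, which the number of arrays limits. The spread behind a p-value is that between pools, not between single mice. Of the probe sets, 20380 carried 1 gene symbol in the platform annotation, 691 several and 1555 none. Symbols were matched by identifier to the GRCm38.p6 RefSeq table for 20351, which changed 0, and 29 were kept. Each of 12393 genes was taken by the single-symbol probe set with the highest mean. Named were the 15 largest called increases and decreases outside the set-aside lists, the 4 set-aside genes per direction with the lowest p, up to 4 called members per list with the lowest p, in each case with the larger of the group means above 5.96, the median of all values, and the 3 genes per direction with the lowest interaction p. Further genes given with values that did not pass, and Gsta2, Proc, Fth1, Gbe1, Gyg and Cidec, were picked with their values in view. The comparison, the lists and the rules were chosen with earlier results of these data known, and lists are described by counts and medians without a test.

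Same-numbered pools of the genotypes correlated at 0.158, 0.069 and 0.235 in their deviations from the group means, and differently numbered pools at -0.194 to 0.043. On the control diet these were 0.126, 0.084 and 0.041, against -0.097 to 0.021. Same-numbered pools were thus somewhat more alike on both diets. The titles do not say what the numbers stand for. The main fit did not take them as pairs, and a fit with the number as a block is among the alternatives. In 5 simulated runs of each size with 200 of 22626 probe sets changed, 40.8% of changes of 0.5 log2 units and 94.8% of 1 were recovered, with 3.2 and 11.4 false calls per run. Their noise was normal and independent for each probe set and array. Alternatives were quantile normalization, centring on the median, other variance priors, array weights, a filter on dim probe sets, the replicate number as a block, the 6 quercetin-diet arrays alone, gene means and each array left out.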

Additional observations from a re-analysis of the deposited data

Results flagged for a closer look

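In 3 of the named genes the POR-null arrays lay wholly on one side of the wild-type arrays on the quercetin diet and wholly on the other side on the control diet. F11r, the tight junction protein JAM-A, differed by 0.43 on quercetin and -0.28 on control, and its second probe set differed by -0.13 on quercetin. Ola1, an ATPase of the Obg family, differed by 0.33 and -0.30, did not pass on quercetin (adjusted p 0.0847), and had 3 of 4 probe sets in that direction, the lowest at -0.14. Lcat, which esterifies plasma cholesterol, differed by -0.49 and 0.08. These genes are among those with the lowest interaction p, and the interaction did not pass for any of them (limma adjusted p 0.601).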

How the results depend on the processing

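Probe sets called were 527 (396 higher, 131 lower) as reported, 1052 (741 and 311) with array weights and 950 (682 and 268) with the 6 quercetin-diet arrays alone, and the genes outside the P450 and lipid lists were 589 (407 and 182) and 527 (381 and 146) in place of 282 (208 and 74), holding 282 and 278 of the genes reported. With 1 quercetin-diet array left out, probe sets called ranged from 127 to 389 (higher 103 to 321, lower 24 to 88) and genes outside the lists from 70 to 215 (higher 57 to 179, lower 13 to 50). Between 68 and 172 of these were among the 282. Quantile normalization gave 264 such genes, 224 of them shared, with 167 higher and 97 lower, and median centring gave 231 higher and 51 lower. Genes lower on both diets numbered 9 as reported, 14 with quantile normalization, 5 with centring and 17 with array weights. With any of the 12 arrays left out, genes higher on both diets ranged from 9 to 128, genes lower on both from 1 to 33, and probe sets called in the interaction from 0 to 1. With the replicate number as a block 489 probe sets were called (378 higher, 111 lower) and 267 genes outside the lists, 230 of them shared, with 63 higher and 9 lower on both diets and an interaction count of 0. The block ended 8 of the 89 named calls, those of C9, Cfb, Kmo, Ugt2b5, Hibch, Hspd1, Hspe1 and Ifih1. Outside the fits with an array left out, the robust variance prior ended 14 named calls, quantile normalization 9, centring 6, gene means 5 and a prior without trend 5, and no named gene reversed in any fit. Of 735 recomputed list medians 67 moved by more than the spread between replicates. The cause of these changes was not tested. Changes of 0.5 log2 units lie at the limit of what 3 pools per group detect.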

Other observations

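Some called genes outside every list were chosen here after their values were seen. They are given one by one, no group of genes was tested, and they were not refitted with a pool left out. Idh2, which makes NADPH in mitochondria, read 9.50, 9.67 and 9.38 in POR-null pools and 8.52, 8.61 and 8.79 in wild-type pools on quercetin, a difference of 0.88 (SE 0.14). Prdx3, the mitochondrial peroxiredoxin, read 9.65, 9.64 and 9.64 against 8.93, 8.93 and 8.98, a difference of 0.70 (SE 0.11). Ppif, cyclophilin D of the permeability pore, differed by 0.79 (SE 0.12) and Mdh2, malate dehydrogenase of the citric acid cycle, by 0.57 (SE 0.12). The pools of the genotypes do not overlap in any of these 4 genes. Because they were picked from called genes, this adds no support. Over all genes the POR-null arrays lay wholly above the wild-type arrays for 12.2%.

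Tgfbr2, the type II receptor of TGF-beta, read 8.06, 7.89 and 7.86 in POR-null and 6.93, 6.46 and 6.41 in wild type, a difference of 1.34 (SE 0.18), but 1 of its 3 probe sets was called. Aqp8, a water channel of hepatocytes, differed by 1.18 (SE 0.21), Prnp, the prion protein, by 1.01 (SE 0.14) and Cldn2, a claudin of tight junctions, by 0.86 (SE 0.16). Lhpp, a phosphatase, differed by 1.25 (SE 0.15) and Gpcpd1, which breaks down glycerophosphocholine, by 1.21 (SE 0.15), with control-diet differences of 0.96 and 0.99.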
